A study of Mus musculus with 6 samples.

Results

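Small nucleolar RNAs (snoRNAs) were examined on microarrays of natural killer (NK) cells from mouse spleen. A probe set was counted as a snoRNA where its only platform-annotation symbol was Snora or Snord followed by a digit. This gave 56 of the 35556 probe sets, for 51 snoRNA symbols. Box C/D snoRNAs (Snord) held 33 probe sets for 31 symbols, and box H/ACA snoRNAs (Snora) held 23 probe sets for 20 symbols. The cells were CD3-negative and carried NK1.1, CD27 and YFP, and were sorted straight after the spleens of C57Bl/6 mice of 8 to 12 weeks were taken. NK cells are lymphocytes of innate immunity that kill virus-infected cells and tumour cells, and CD27 marks their less mature stages. The genotype labelled 15a/16-1FKO (knockout in what follows) and the genotype labelled Ctrl were each measured on 3 arrays. Both genotypes were sorted on the same 4 features, and the driver of the deletion and the number of mice per array are not given in the sources used here. The comparison asked how these cells differ when microRNA-15a and microRNA-16-1 are lost.

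snoRNAs are short nucleolar RNAs that guide chemical changes of other RNAs, mainly ribosomal RNA. Box C/D snoRNAs pair with their target and place a methyl group on a ribose through the methyltransferase fibrillarin (Fbl), and box H/ACA snoRNAs turn uridine into pseudouridine through dyskerin (Dkc1). A few, such as Snord118 (U8), Snord22 (U22), Snord14 (U14) and Snora73 (U17), serve in cutting the ribosomal precursor RNA. In mammals most snoRNAs are released from introns of host genes, often genes of ribosomal proteins or of non-coding RNAs. A probe set inside an intron can read the processed snoRNA and the unspliced host RNA alike, and the values do not separate them.

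The design text calls arrays of 1 genotype technical replicates, and the p-values measure no more than the spread among them. The arrays differed in sex-linked transcripts. Xist, the RNA that silences an X chromosome in female cells, read 7.56, 8.58 and 8.84 on knockout arrays 1 to 3 and 9.65, 3.89 and 8.86 on control arrays 1 to 3 (log2). The Y-linked gene Kdm5d read 7.01, 6.04 and 5.04 on the knockout arrays and 4.16, 7.27 and 5.66 on the control arrays. Knockout array 1 and control array 2 thus had the lowest Xist and the highest Kdm5d of their genotypes, and results that rest on them are given with and without them. Of these 2 arrays only control array 2 stood far apart in Xist. Control array 1 lay at the other end, with the highest Xist of all 6 arrays. The Y-linked genes Eif2s3y and Uty read 2.33 and 2.31 on control array 1, against 7.95 and 5.03 on control array 2. Control arrays 1 and 2 therefore did not measure the same RNA sample, although the design text calls them technical replicates. The deleted locus itself separated the genotypes: the precursor of microRNA-15a (Mir15a) read 4.37, 3.53 and 3.43 in knockout and 7.14, 6.02 and 6.69 in control arrays. Even its difference of -2.84 did not pass the adjusted threshold of 0.05 (limma, adjusted p 0.59). The precursor of microRNA-16-1 (Mir16-1) had means of 2.76 in knockout and 3.39 in control, both below background, a difference of -0.63. All 10 measured NK markers lay above background, with array means of 9.73 to 10.01 in knockout and 9.82 to 9.87 in control. Of the markers of other cells, 4 of 6 T cell, 2 of 4 B cell, 2 of 5 myeloid, 4 of 5 neutrophil, 1 of 2 erythroid and 2 of 5 platelet genes lay above background, and 0 passed the test (limma, unadjusted p under 0.05 for Cd28 and Gp5).

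The host gene of a snoRNA is often transcribed from a start of the terminal oligopyrimidine kind, a run of C and T that begins the RNA and is shared with ribosomal protein genes. According to RefSeq (GRCm38.p6), 50 of the 51 snoRNAs lay within the bounds of another gene, and 3 of them within 2 genes. The exception was Snord118. The enclosing genes numbered 43, of which 33 were protein coding, 10 were long non-coding RNAs and 16 encoded ribosomal proteins. Ribosomal protein genes enclosed 21 of the 51 snoRNAs. The strand of the snoRNAs was not compared with that of these genes. Because many non-coding hosts are named for their snoRNAs, the 9 starts that the RefSeq table held for 7 of the 10 are all shown, from 40 bases before the annotated start to the 20 bases that follow. Capitals mark the letters CTTT or CTCT, or a run of overlapping matches, within 6 bases of either side of the start.
Snhg12, chr4:132308638-132308697, plus strand, encloses Snora44 and Snora16a: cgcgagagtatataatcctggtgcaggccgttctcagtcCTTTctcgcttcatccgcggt
2410006H16Rik, chr11:62602837-62602896, plus strand, encloses Snord49a and Snord49b: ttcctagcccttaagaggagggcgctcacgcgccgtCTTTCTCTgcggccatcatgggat
Gas5, chr1:161035126-161035185, plus strand, encloses Snord47: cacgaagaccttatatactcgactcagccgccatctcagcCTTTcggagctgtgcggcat
Gm36220, chr11:106500875-106500934, plus strand, encloses Snord104: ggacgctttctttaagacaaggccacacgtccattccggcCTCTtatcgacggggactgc
1110038B12Rik, chr17:34952449-34952508, minus strand, encloses Snord52: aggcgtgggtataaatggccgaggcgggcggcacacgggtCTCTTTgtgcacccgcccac
Snhg3, chr4:132353667-132353726, minus strand, encloses Snora73a and Snora73b: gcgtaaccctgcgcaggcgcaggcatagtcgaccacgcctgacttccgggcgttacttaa
Snhg1, chr19:8723447-8723506, plus strand, encloses Snord22: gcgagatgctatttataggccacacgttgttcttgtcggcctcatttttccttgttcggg
Gas5, another start, chr1:161034561-161034620, plus strand: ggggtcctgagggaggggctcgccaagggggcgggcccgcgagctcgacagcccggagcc
1110038B12Rik, another start, chr17:34952452-34952511, minus strand: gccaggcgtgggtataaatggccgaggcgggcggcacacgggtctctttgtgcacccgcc
The letters CTTT or CTCT lay in this window on the transcribed strand at 5 of 9 starts of the non-coding hosts (55.6%, 7 genes). Over all enclosing genes, the non-coding hosts included, they lay there at 9 of 33 starts (27.3%, 31 genes). Of these 9 matches 5 are those of the non-coding hosts. Among all 32851 starts the share was 9.38%, and on the opposite strand it was 9.91%. On the opposite strand the hosts held it at 0 of 9 and 1 of 33 starts. The starts of Snhg3 and Snhg1 and the other starts of Gas5 and 1110038B12Rik held neither in the window, which says nothing about their regulation. CTTT and CTCT can overlap, and a match describes the letters only.

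Most snoRNA probe sets read above background. Because the files carry no detection calls, the level below which 95% of the olfactory receptor probe sets lay, 4.13 on the log2 scale, was taken as background. By it 47 of 56 snoRNA probe sets (83.9%) lay above background, against 18626 of 35556 (52.4%) over the table. Among box H/ACA snoRNAs 21 of 23 lay above it, and among box C/D snoRNAs 26 of 33. The mean values over the 6 arrays ran from 1.96 for Snora2b to 10.9 for Snord49b, with a median of 5.84 against 4.26 over all probe sets. These values describe signal, which depends on each probe set's probes, and do not order the snoRNAs by abundance. Values of the table ran from 0.74 to 13.6 with array medians of 4.23 to 4.33. Array values have no sequencing depth, and 6 arrays set the limit of precision.

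**Figure D1:**
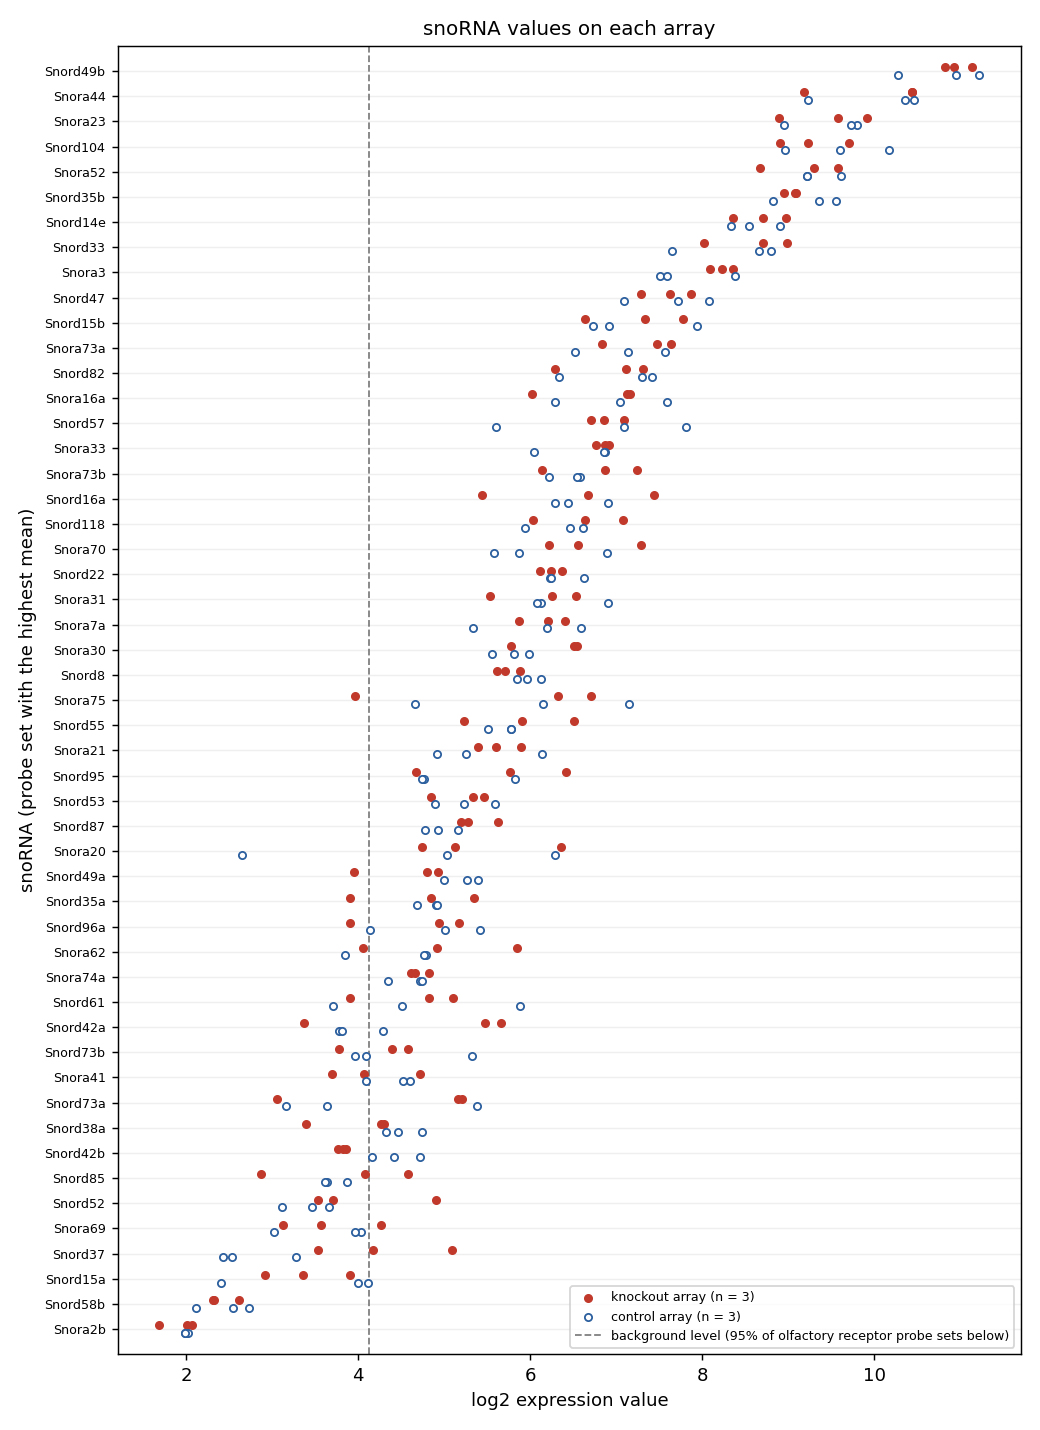
Log2 expression value (horizontal axis) of each of the 51 snoRNAs (vertical axis, the probe set with the highest mean) on the 3 knockout arrays (filled red) and the 3 control arrays (open blue), with the background level of 4.13 as a dashed line. Points of both genotypes interleave for most snoRNAs, and only Snord37, Snord87, Snord42b, Snord38a and Snord49a have genotypes that do not overlap.

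5 symbols had 2 probe sets. Both Snora30 and both Snord118 probe sets held identical values on all 6 arrays, so that each pair counts as 1 measurement. The pairs of Snora3, Snora21 and Snord58b differed by at most 0.0355, 0.122 and 0.138 on any array. Counts below are given over 56 probe sets unless they say 51 snoRNAs.

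No snoRNA passed the test between genotypes. With limma and Benjamini-Hochberg adjustment over the 35556 probe sets, 0 of 56 snoRNA probe sets and 0 of all probe sets (0%) had an adjusted p under 0.05, and every snoRNA had an adjusted p of 0.9995. At an unadjusted p under 0.05 there were 2 snoRNA probe sets, Snord37 and Snord42b, against 1214 of all probe sets (3.41%). Snord37 was the 1 that read higher, where 663 probe sets of the table did (1.86%), and Snord42b the 1 that read lower, where 551 did (1.55%). The fit with the replicate number as a block counted 4 snoRNA probe sets, against 1514 of all probe sets (4.26%), still with 0 past the adjusted threshold. Of the snoRNAs 30 probe sets read higher and 26 lower in knockout, with a median difference of 0.05 on the log2 scale against -0.0014 over all probe sets. Over 51 snoRNAs the split was 26 to 25 with a median of 0.01. The median over 56 probe sets was 0.16 without knockout array 1, 0.13 without control array 1 and -0.02 without control array 2.

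The precision differed widely among snoRNAs. The standard error of a difference ran from 0.14 to 0.94 with a median of 0.33, where the median over all probe sets was 0.18. For 24 of 56 probe sets the 95% interval of the difference stayed within 1 log2 unit on either side of 0. The intervals of the others reached past a 2-fold difference in at least 1 direction, so that for them the data do not bound a change to less than that. A difference of more than 0.5 in either direction was seen for 9 of 56 snoRNA probe sets (16.1%), against 2824 of all probe sets (7.94%).

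**Figure D2:**
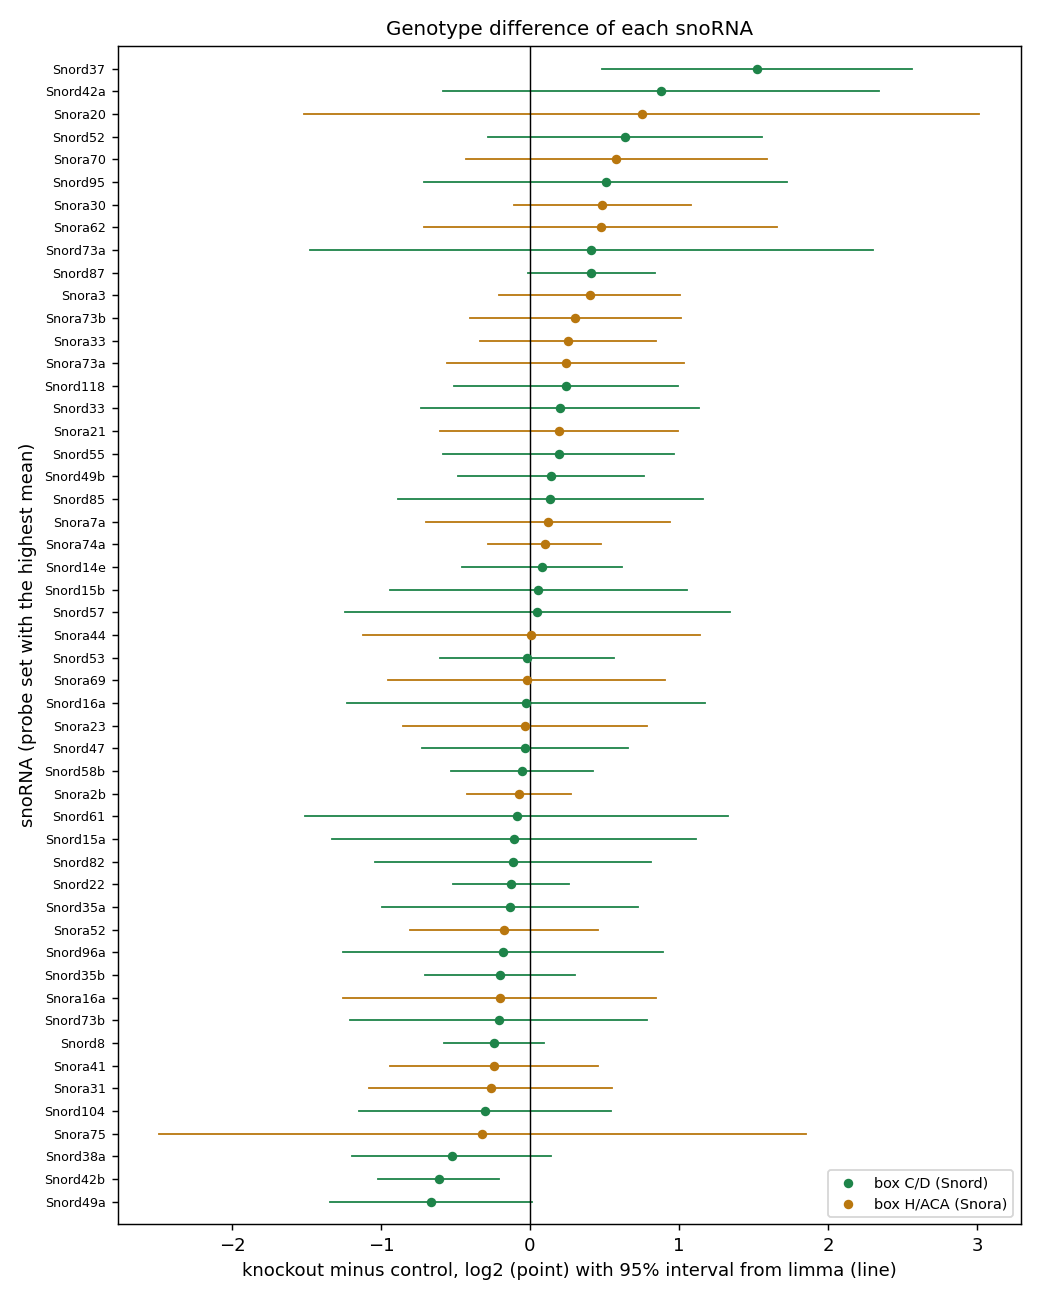
Knockout minus control difference on the log2 scale (horizontal axis) of each of the 51 snoRNAs (vertical axis, ordered by difference), as points with 95% intervals from limma, box C/D in green and box H/ACA in brown. The intervals of Snord37 and Snord42b do not cross 0, and those of Snora20, Snora75, Snord73a and Snord42a are the widest.

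Both snoRNA classes spread around 0. Of the 33 box C/D probe sets 15 read higher and 18 lower in knockout, with a median difference of -0.03. Of the 23 box H/ACA probe sets 15 read higher and 8 lower, with a median of 0.20, and Snora30, Snora3 and Snora21 each entered the higher ones with 2 probe sets. Without knockout array 3 the box H/ACA median was 0.04, and over leaving out each array in turn the box C/D median ran from -0.13 without control array 2 to 0.09 without control array 3. With 1 probe set per symbol the box H/ACA median was 0.11. The difference between the classes was not tested.

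Arrays of the genotypes did not overlap for 5 of 56 probe sets, all box C/D, against 2845 of all probe sets (8%). Snord37 and Snord87 were higher on every knockout array, where 1408 probe sets of the table were (3.96%), and Snord42b, Snord38a and Snord49a were lower, where 1437 were (4.04%). This share lay near that of the whole table. With fewer arrays more probe sets separate: the count was 11 without knockout array 1, 9 without knockout array 2 and 11 without control array 2, where 17.4%, 16.6% and 17.7% of all probe sets did not overlap. Of 56 snoRNA probe sets these counts are near those shares.

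Among the guides of ribosomal RNA methylation, Snord37 had the largest difference. Snord37 lies in Eef2, which encodes the elongation factor that moves the ribosome along the messenger RNA. It read 4.17, 5.09 and 3.53 on the knockout arrays and 2.53, 3.27 and 2.43 on the control arrays. The lowest knockout array thus lay above the highest control array, while all control arrays lay below background. The means were 4.27 ± 0.78 in knockout and 2.74 ± 0.46 in control (SD, n = 3 arrays each), a difference of 1.52 (limma, SE 0.43, 95% interval 0.48 to 2.56, unadjusted p 0.0112, adjusted p 0.9995). The fit with the replicate number as a block gave it an unadjusted p of 0.000814 (limma, adjusted p 0.999). No fold is given, because the control level is not above background. The probe set of Eef2 differed by -0.06 (SE 0.17).

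Rpl23a, a gene of the large ribosomal subunit, encloses both Snord42a and Snord42b, and these differed in opposite directions. Snord42b read 3.86, 3.77 and 3.82 on the knockout arrays and 4.42, 4.16 and 4.72 on the control arrays. Its knockout values were nearly alike and all below the control values, although its mean of 4.12 lay at the background level. Its means were 3.82 ± 0.05 in knockout and 4.43 ± 0.28 in control (SD, n = 3 each), a difference of -0.61 (limma, SE 0.17, 95% interval -1.02 to -0.21, unadjusted p 0.00993, adjusted p 0.9995). With the replicate number as a block its unadjusted p was 0.0152 (limma, adjusted p 0.999). No fold is given here either, since the knockout level lies below background. Snord42a read 5.48, 3.37 and 5.66 on the knockout arrays and 4.29, 3.78 and 3.81 on the control arrays. Its knockout array 2 was the lowest of all 6 while the other knockout arrays were the highest, which gave a difference of 0.88 (SE 0.61). Its difference was 1.61 without knockout array 2 (limma, adjusted p 0.79), 0.56 without knockout array 1 and 0.47 without knockout array 3. The probe set used for Rpl23a differed by -0.01 (SE 0.12).

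The other 3 box C/D snoRNAs without overlap had differences between 0.41 and 0.66 in size. Snord87, enclosed by Snhg6 and Mcmdc2, read 5.27, 5.63 and 5.19 in knockout and 4.93, 4.77 and 5.16 in control. The closest arrays of the genotypes were 5.19 and 5.16, and the difference was 0.41 (SE 0.18). Snord49a read 4.80, 4.92 and 3.95 in knockout and 5.001, 5.27 and 5.39 in control, with a difference of -0.66 (SE 0.28). Knockout array 3 was lowest for it, as it was for Snord38a, which read 4.30, 4.26 and 3.39 in knockout and 4.46, 4.74 and 4.33 in control. The difference of Snord38a was -0.52 (SE 0.28). Without knockout array 3 the difference was -0.36 for Snord49a and -0.23 for Snord38a.

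The next box C/D snoRNAs by p overlapped between genotypes. Snord52, a dim snoRNA enclosed by 1110038B12Rik, read 3.53, 3.71 and 4.91 in knockout and 3.46, 3.66 and 3.11 in control. Knockout array 3 stood above the other 5 arrays, which were close together, and the difference was 0.64 (SE 0.38), or 0.21 without that array. Snord8, enclosed by Chd8 and Gm26590, read 5.88, 5.71 and 5.62 in knockout and 6.12, 5.96 and 5.85 in control, a difference of -0.24 (SE 0.14). Snord8 had the smallest spread of all snoRNAs above background, and it lies on chromosome 14, as do Mir15a and Snora31. Snora31 differed by -0.26 (SE 0.34). Snord35b read 9.08, 8.95 and 9.09 in knockout and 9.36, 8.82 and 9.55 in control, a difference of -0.20 (SE 0.21), or -0.42 without control array 2 and -0.048 without control array 3.

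Among the guides of pseudouridine formation, the smallest p-values belonged to Snora30 and Snora3, which both read higher in knockout. Snora30, enclosed by the chromatin remodeller gene Srcap, read 6.54, 5.78 and 6.50 in knockout and 5.99, 5.82 and 5.56 in control. Knockout array 2 lay within the control values and the other knockout arrays above them, and the difference was 0.49 (SE 0.25). Over leaving out each array it ran from 0.35 without knockout array 1, its highest array, to 0.74 without knockout array 2. Without knockout array 3 it was 0.37, and without control array 3 also 0.37. Snora3, enclosed by the ribosomal protein gene Rpl27a, read 8.23, 8.36 and 8.09 in knockout and 7.51, 8.38 and 7.59 in control on its brighter probe set. Only control array 2 reached the knockout values, and the difference was 0.40 (SE 0.25), or 0.67 without that array and 0.24 without control array 1. No box H/ACA probe set had an unadjusted p under 0.05 (limma, 0 past the adjusted threshold).

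None of the snoRNAs known for cutting the ribosomal precursor RNA had an unadjusted p under 0.05 (limma, 0 past the adjusted threshold). Snord118 (U8), which is made from its own gene, read 6.03, 7.07 and 6.64 in knockout and 5.94, 6.46 and 6.62 in control, a difference of 0.24 (SE 0.31, 95% interval -0.51 to 0.99). Snord22 (U22), enclosed by Snhg1, read 6.37, 6.11 and 6.24 in knockout and 6.23, 6.24 and 6.62 in control, a difference of -0.13 (SE 0.16, 95% interval -0.51 to 0.26). Snord22 and Snora74a (U19, enclosed by Snhg4) were among the 4 snoRNAs above background with the smallest spread between arrays. Snora74a read 4.61, 4.67 and 4.82 in knockout and 4.72, 4.74 and 4.35 in control, a difference of 0.10 (SE 0.16, 95% interval -0.28 to 0.48). Snora73a and Snora73b, both forms of U17 and both enclosed by Snhg3, differed by 0.24 (SE 0.33, 95% interval -0.56 to 1.04) and 0.31 (SE 0.29, 95% interval -0.40 to 1.01). Snord14e, a U14 gene in the chaperone gene Hspa8, read 8.36, 8.70 and 8.97 in knockout and 8.54, 8.34 and 8.91 in control, a difference of 0.08 (SE 0.22).

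snoRNA probe sets varied more between arrays of a genotype than most probe sets. The pooled standard deviation (SD) within genotypes had a median of 0.49 (range 0.14 to 1.44) over snoRNAs. It was 0.23 over all probe sets, 0.21 over 305 microRNA precursor probe sets and 0.12 over 218 ribosomal protein probe sets. The excess held at every level of signal: the median was 0.56 against 0.21 over all probe sets below background, 0.54 against 0.26 from background to a mean of 6, 0.48 against 0.25 from 6 to 8, and 0.36 against 0.20 at 8 and above. In these ranges 7 of 9, 17 of 20, 16 of 17 and 10 of 10 snoRNA probe sets exceeded the median of all probe sets of the range. These are 50 of 56 in all. They are a description, since probe sets on 1 array are not independent.

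**Figure D3:**
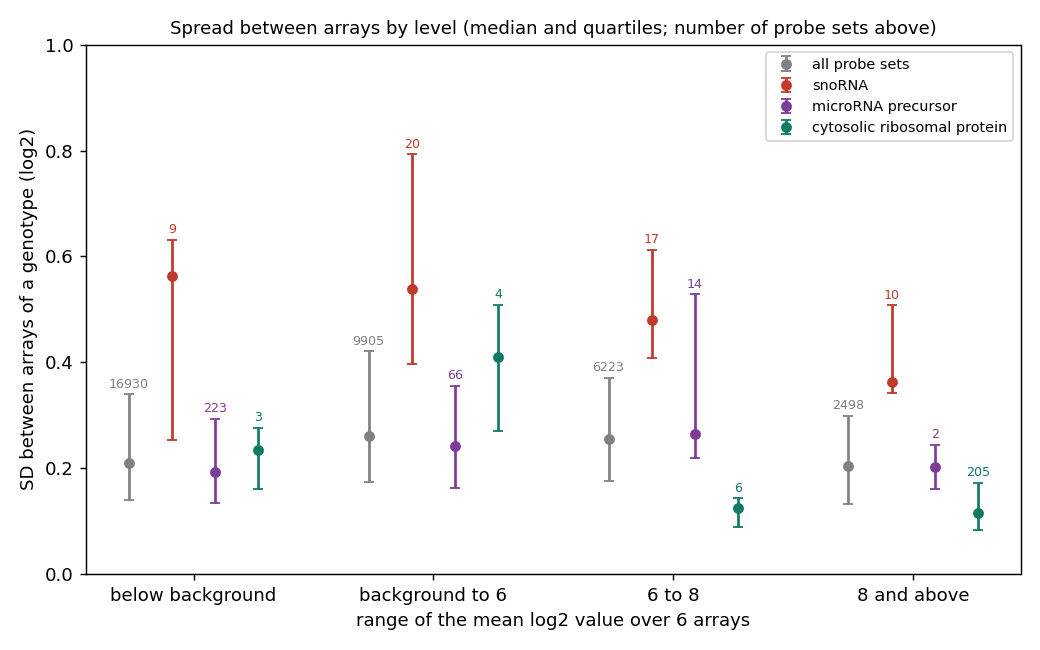
SD between arrays of a genotype on the log2 scale (vertical axis; points are medians, bars run between quartiles, numbers count probe sets) in 4 ranges of the mean log2 value (horizontal axis), for all probe sets, snoRNAs, microRNA precursors and cytosolic ribosomal proteins. The snoRNA medians of 0.36 to 0.56 lie above those of all probe sets, 0.20 to 0.26, in each range.

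The most variable snoRNAs changed by several log2 units between arrays that share a genotype. Snora20, enclosed by the chaperonin gene Tcp1, read 5.13, 6.35 and 4.74 in knockout and 2.64, 5.04 and 6.29 in control (SD 1.44). Control arrays held the lowest value and, next to knockout array 2, the second highest, and its difference was 0.75 (SE 0.94). Snora75, enclosed by the nucleolin gene Ncl, read 6.71, 3.96 and 6.32 in knockout and 7.15, 6.14 and 4.66 in control (SD 1.38), a difference of -0.32 (SE 0.90). Snord73a, enclosed by Rps3a1, read 5.20, 3.06 and 5.16 in knockout and 3.16, 3.64 and 5.38 in control (SD 1.20). Its arrays fell into 3 high and 3 low values that did not follow the genotype, and its difference was 0.41 (SE 0.78).

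Among the brighter snoRNAs the spread between arrays had a common form. Knockout array 1 and control array 2, each with the lowest Xist of its genotype, were the 2 lowest arrays for 11 of 24 snoRNAs with a mean of 6 or above (45.8%). Over all probe sets of that brightness they were the 2 lowest in 322 of 8721 (3.69%). At a mean of 8 or above the counts were 6 of 9 snoRNAs (66.7%) against 110 of 2498 probe sets (4.40%). For the ribosomal protein probe sets the count was 4 of 218 (1.83%), and for microRNA precursors with a mean of 6 or above it was 1 of 16 (6.25%). The share was higher among other small structural RNAs, a group of 17 probe sets for spliceosomal, Cajal body and similar RNAs, with 4 of 17 (23.5%) and median deviations of -0.11 on knockout array 1 and -0.23 on control array 2. Over all 51 snoRNAs, whatever their brightness, it was 12 (23.5%), against 7.81% of all probe sets. This pattern was found on the same arrays that it describes, and arrays and snoRNAs are not independent, so it carries no test.

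The pattern is visible in single snoRNAs. Snora44, enclosed by Snhg12, read 9.18, 10.44 and 10.44 on knockout arrays 1 to 3 and 10.35, 9.24 and 10.46 on control arrays 1 to 3. Knockout array 1 and control array 2 lay about 1 log2 unit below the other 4, which were nearly alike, and the genotype difference was 0.01 (SE 0.47). Snora16a, enclosed by the same gene, read 6.03, 7.16 and 7.13 in knockout and 7.05, 6.29 and 7.59 in control, with the same arrays lowest. Snord49b read 10.82, 10.92 and 11.13 in knockout and 11.22, 10.28 and 10.95 in control (difference 0.14, SE 0.26). Snora23, enclosed by the nuclear import gene Ipo7, read 8.89, 9.58 and 9.91 in knockout and 9.80, 8.95 and 9.72 in control (difference -0.03, SE 0.34). For both, control array 2 or knockout array 1 held the bottom of the range, as it did for Snora52 in Rplp2, which read 8.67, 9.57 and 9.30 in knockout and 9.22, 9.22 and 9.62 in control (difference -0.17, SE 0.26). Snord33, which lies in Rpl13a and is known from cells under lipid stress, read 8.02, 8.70 and 8.99 in knockout and 8.66, 7.64 and 8.80 in control (difference 0.20, SE 0.39).

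Some snoRNAs went the opposite way. Control array 2 was the highest array for Snord104, Snora3, Snora31 and Snora7a, all with a mean of 6 or above, and for the dimmer Snord96a, Snord38a and Snord15a. Snord104, enclosed by Gm36220, read 9.23, 9.70 and 8.90 in knockout and 8.97, 10.17 and 9.60 in control, a difference of -0.30 (SE 0.35). Over snoRNAs with a mean of 8 or above, the median deviation from the mean of the 6 arrays was -0.28 on knockout array 1 and -0.32 on control array 2, against 0.19 to 0.27 on the other arrays. Over all probe sets with a mean of 8 or above it was 0.04 on knockout array 1 and 0.01 on control array 2. With a mean of 6 or above, it was -0.22 and -0.31 on these arrays over snoRNAs, and 0.07 and 0.02 over all probe sets. Xist was lowest, and Eif2s3y, Kdm5d and Uty were highest, on knockout array 1 and control array 2, and their part in this pattern was not tested.

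**Figure D4:**
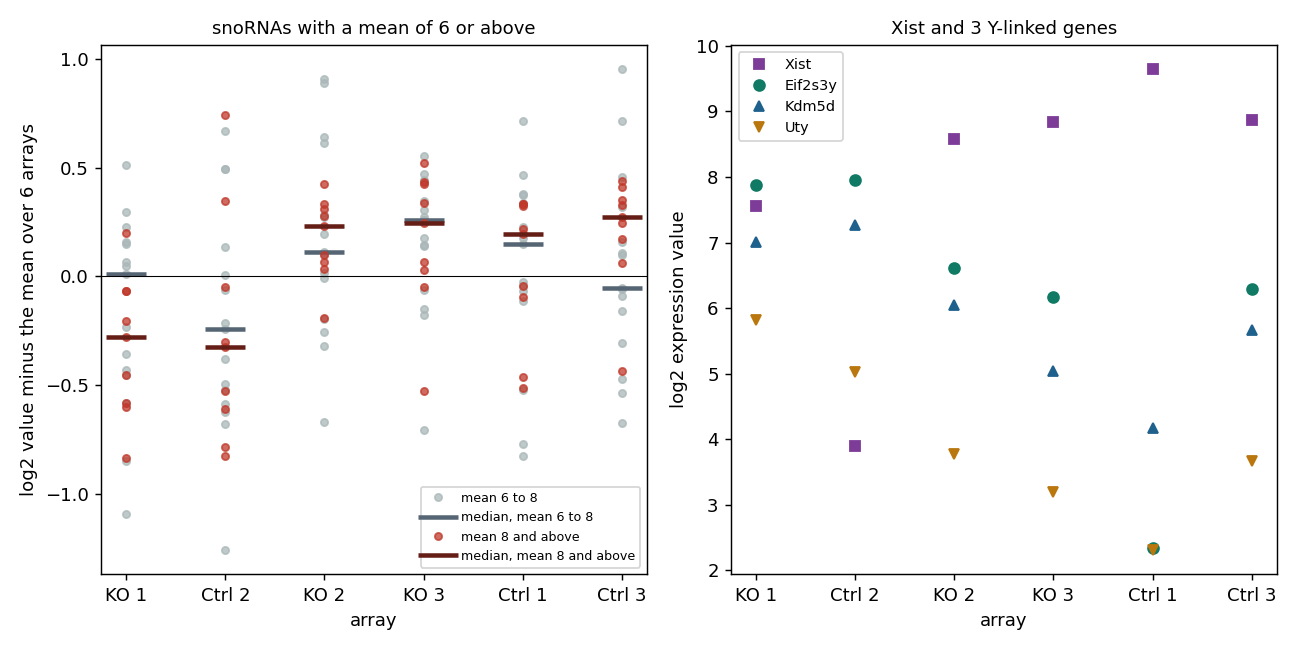
Left, log2 value minus the mean over 6 arrays (vertical axis) of snoRNAs with a mean of 6 to 8 (grey) and of 8 and above (red) on each array (horizontal axis), with bars for medians; right, log2 values of Xist, Eif2s3y, Kdm5d and Uty on the same arrays. The medians of the brightest snoRNAs are -0.28 on knockout array 1 and -0.32 on control array 2, the arrays with Xist at 7.56 and 3.89.

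Leaving out knockout array 1 and control array 2 together, an alternative chosen after the pattern was seen, left 0 snoRNA probe sets past the adjusted threshold. In that fit 5 had an unadjusted p under 0.05, against 1423 of all probe sets (4.0%). With 2 arrays a genotype left, 20 did not overlap, against 11009 of all probe sets (31.0%), so the count of 20 lies near the share of the whole table. The median differences were 0.07 over all snoRNA probe sets, -0.03 over box C/D and 0.21 over box H/ACA.

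The probe sets used for host genes varied less than those of the snoRNAs inside them. A probe set with their symbol alone was found for 25 of the 43 enclosing genes, which enclose 29 of the snoRNAs. Where a symbol had several, as Rpl23a with 13, the brightest was used, and its position in the genome was not checked. Levels were not matched: many of these genes read brighter than their snoRNAs, while Mcmdc2, used for Snord87, read 2.51, below background. Between genotypes these genes differed by -0.12 to 0.22 with a median of 0.01. The test called 0 of them (limma), and 0 had an unadjusted p under 0.05. The median size of the difference was 0.06 for these genes and 0.24 for the snoRNAs within. The SD between arrays was larger in the snoRNA than in its host for 27 of 29, with medians of 0.49 and 0.14. The sign of the difference was the same in 10 of 29. For none of the 25 enclosing genes were knockout array 1 and control array 2 the 2 lowest arrays.

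**Figure D5:**
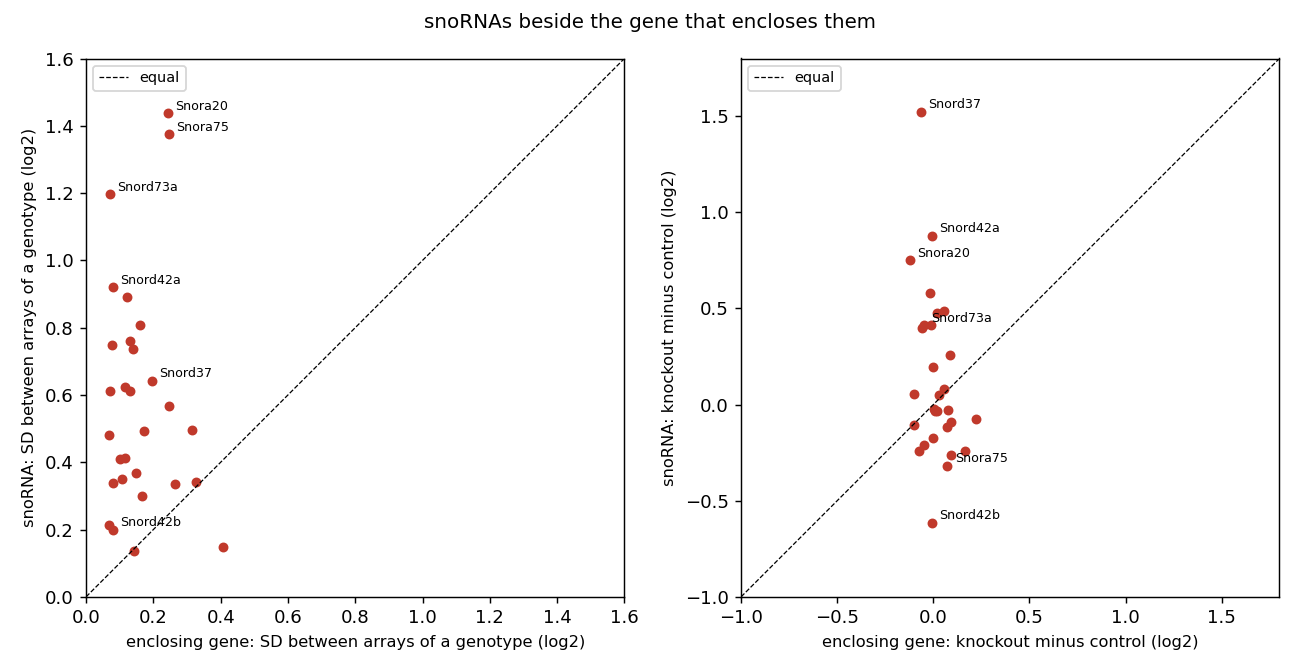
Each point is 1 of the 29 snoRNAs with a measured enclosing gene: the SD between arrays (left) and the knockout minus control difference (right) of the snoRNA (vertical axis) against the same of the enclosing gene (horizontal axis), both in log2 units, with a dashed line where they are equal. In the left panel 27 of 29 points lie above the line, and in the right panel the enclosing genes stay between -0.12 and 0.22 while Snord37 reaches 1.52.

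snoRNAs that share a host did not always move together across the arrays. In a description over the 6 arrays, which share genotype and array effects, Snora44 and Snora16a in Snhg12 had Pearson's r of 0.95, Snord73a and Snord73b in Rps3a1 0.84, and Snora73a and Snora73b in Snhg3 0.77. In contrast r was -0.62 for Snord33 and Snord35a in Rpl13a, -0.46 for Snord49a and Snord49b in 2410006H16Rik, and -0.39 for Snord42a and Snord42b in Rpl23a. The other 4 pairs lay between 0.23 and 0.44. Between the 29 snoRNAs and their measured hosts, r ran from -0.70 (Snora3 with Rpl27a) to 0.96 (Snord47 with Gas5), with a median of 0.19, 17 above 0 and 12 below. Snord47 differed by -0.03 (SE 0.29) and the brightest Gas5 probe set by 0.01 (SE 0.13), while the 4 Gas5 probe sets differed by -0.21 to 0.46.

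The proteins that carry or assemble snoRNAs did not pass the test either. Of 20 measured genes, 6 read higher and 14 lower in knockout, with a median difference of -0.13 and a range of -0.44 to 0.22. The test called 0 of them (limma), and 1 of 20 had an unadjusted p under 0.05, against 1214 of all probe sets (3.41%). The box C/D proteins differed by -0.18 (SE 0.22) for Fbl, 0.03 (SE 0.15) for Nop56, 0.03 (SE 0.15) for Nop58 and -0.14 (SE 0.19) for Snu13. The box H/ACA proteins differed by 0.06 (SE 0.17) for Dkc1, -0.13 (SE 0.40) for Nhp2, 0.05 (SE 0.15) for Nop10 and 0.22 (SE 0.22) for Gar1. Of 12 assembly factors 11 read lower in knockout, with a median of -0.19, where 17881 of all 35556 probe sets read lower. Nufip1, an assembly factor of box C/D particles, read 5.38, 5.26 and 5.40 in knockout and 5.90, 5.57 and 5.90 in control. Its genotypes did not overlap, with a difference of -0.44 (limma, SE 0.14, unadjusted p 0.0200, adjusted p 0.9995). The helicase gene Ruvbl2 differed by -0.33 (SE 0.15), and its genotypes did not overlap either. Of 4 measured genes on a separate list of non-coding hosts, 2 read higher and 2 lower in knockout. Among these only Snhg11 did not overlap, with a difference of -0.28 (SE 0.13) and means of 4.15 in knockout and 4.43 in control, near background. Snhg11 encloses none of the snoRNAs counted here. Gas5, Taf1d and Snhg5 differed by 0.01, 0.01 and -0.15. Over all probe sets 8% did not overlap. Pih1d1 differed by -0.35 (SE 0.24) with overlap. In bulk RNA of sorted cells, fewer cells of a type and less RNA per cell cannot be told apart.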

How the data were processed

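The values were deposited by the authors on the log2 scale, for 35556 probe sets on 6 Affymetrix mouse gene arrays. RMA and Partek 6.6 are named in the submitters' processing notes, without the role of each. The genome build was not given in the sources used here. RMA subtracts background, quantile-normalizes arrays and summarises probes as log2 values, which compresses differences of dim probe sets. The platform annotation gave 21789 probe sets 1 symbol, 1621 several, and did not list 12146. Genotypes were compared with a two-sided limma fit (version 3.58.1, R 4.3.3, genotype as the only term, empirical Bayes variances) over all probe sets with Benjamini-Hochberg adjustment and a threshold of 0.05. The fit was also run on simulated data with independent noise. That simulation held no pairing and no shared array effects, so it does not show how the fit behaves with them. Differences are knockout minus control. Host genes and 27025 genes' start sequences came from RefSeq tables (GRCm38.p6). The members, lists and background level were chosen with earlier results of these data known. snoRNAs named one by one were those with the smallest p in each direction (6 each), the highest signal (8), the largest and smallest spread (4 each) or several probe sets. Snora16a, Snord47, Snora31, Snord35a, Snord73b and the U17 forms were named for their host, chromosome or role after their values were seen.

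Replicate numbers appear in both genotypes. Deviations of same-numbered arrays from their genotype means correlated at 0.156, 0.170 and 0.198 over all probe sets, and at 0.069, 0.157 and 0.154 over probe sets with 1 symbol, and at 0.035, 0.185 and -0.120 over the snoRNA probe sets. The first of these meets the criterion for pairing (every correlation over 0.1) and the others do not, so the pairing is not settled for the snoRNAs, and the fit with the replicate number as a block is given where it moved a count. Alternatives were array weights, the block, a robust trended prior, a background filter, array medians set equal, a repeated quantile normalization, probe sets with 1 symbol, 1 probe set per symbol, and leaving out each array.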

Additional observations from a re-analysis of the deposited data

How the results depend on the processing

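Under every alternative run, 0 snoRNA probe sets passed the adjusted threshold (limma; the smallest adjusted p of a named probe set was 0.79). The count over the whole table went from 0 to 5 when only probe sets with 1 symbol were tested and to 4 with 1 probe set per symbol, where fewer were tested. snoRNA probe sets at an unadjusted p under 0.05 (limma) numbered 2, against 3.41% of all probe sets tested. They numbered 0 with the background filter (3.25% of those tested) and 4 with the replicate block (4.26%). With probe sets of 1 symbol they numbered 4 (3.44%), and with 1 probe set per symbol 4 (3.47%). Over leaving out each array they numbered 2 to 7, the highest without knockout array 2 (7) and control array 2 (6). The 7 include both identical probe sets of Snora30, and the 6 include both of Snora3. Among the counts, medians and named snoRNA probe sets the block changed no other call, and it was not run on the host, protein and marker lists. Of all probe sets 3.03% to 4.20% had such a p over leaving out each array. snoRNA probe sets without overlap numbered 5 (8% of all probe sets tested), and 3 with the background filter (7.32%), which removes Snord37 and Snord42b. Over leaving out each array they numbered 7 to 11 (15.9% to 19.3% of all probe sets). Without knockout array 1 and control array 2 together, added after the data were seen, 5 had an unadjusted p under 0.05 (limma, 4.0% of all probe sets) and 20 did not overlap (31.0%). The median difference ran from -0.017 (without control array 2) to 0.165 over leaving out each array, that of box C/D from -0.13 to 0.09 and that of box H/ACA from 0.041 (without knockout array 3) to 0.264. Of 455 values of 31 named probe sets, 424 kept their sign and 31, in 18 probe sets, did not, and the cause was not tested. Over leaving out each array, and both together, the differences ran from -0.30 to 0.25 for Snora23, -0.37 to 0.084 for Snora52, -0.38 to 0.43 for Snora44, -0.98 to 0.53 for Snora75, -0.0065 to 0.58 for Snord118, -0.068 to 0.24 for Snord14e, -0.16 to 0.48 for Snord33, -0.26 to 1.56 for Snora20, -0.16 to 1.12 for Snord73a, -0.13 to 0.34 for Snord49b, -0.029 to 0.21 for Snora74a, -0.25 to 0.0037 for Snord22, -0.088 to 0.61 for Snora21, -0.33 to 0.080 for Snord58b, -0.33 to 0.082 for Snord58b, -0.063 to 0.55 for Snora21 and -0.61 to 0.020 for Snord104, where Snora21 and Snord58b have 2 probe sets each. With array weights Snora23 was 0.030. With 3 arrays a genotype, the 95% interval of a snoRNA difference reached a median of 0.81 log2 units to either side, against 0.45 over all probe sets, and signal near background compresses differences.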

Other observations

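A further 41 probe sets carried a snoRNA among several symbols and entered no count above. Of these, 24 shared 1 label of 3 symbols, copies of the Snord116 family and a predicted gene. Snord116 copies are box C/D snoRNAs of the imprinted Prader-Willi region, known mainly from brain. Their values followed the replicate number and not the genotype: the medians were 2.88, 4.39 and 8.25 on knockout arrays 1 to 3 and 2.61, 4.25 and 8.19 on control arrays 1 to 3. Both arrays numbered 3 thus lay at least 3.10 log2 units above the other 4 arrays. The 24 probe sets held 7 distinct rows of values, and 18 had the same row, so they are far fewer than 24 measurements. Of the 35556 probe sets, 25 had both arrays numbered 3 more than 1.5 above the other 4, and 24 of them were these. None of the 56 snoRNA probe sets with 1 symbol did. Their genotype differences ran from 0.13 to 0.38 (median SE 1.83). The other 17 probe sets with several symbols differed between genotypes by -0.37 to 0.59, 10 of them lay above background, and 0 had an unadjusted p under 0.05 (limma, 0 past the adjusted threshold).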
